A study of Mus musculus with 4 samples.

Results

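The protein scaffold beneath the red cell membrane was examined through 9 genes: Sptb, Epb41, Mpp1, Gypc, Add1, Add2, Add3, Dmtn and Tmod1. They were taken by symbol from a table of 17393 genes, and all 9 passed the filter on low values (10670 genes did). RNA came from 4 libraries of DS19 mouse erythroleukemia (MEL) cells, a transformed line of red cell precursors, with 2 wild-type libraries and 2 from Wdr26-/- cells, which lack a subunit of an E3 ubiquitin ligase. The culture description for all libraries names 1.5% dimethyl sulfoxide, the agent that drives these cells toward a red cell state, but does not state whether the sequenced cells had been treated. How the knockout was made, and whether its libraries come from 1 clone or from separate cultures, is not stated in the labels. The p-values therefore measure only the spread between these libraries, which may be technical.

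The membrane skeleton is a lattice of spectrin tetramers, built from alpha and beta chains, whose ends meet at short actin filaments. Protein 4.1, adducin, dematin and tropomodulin organise these junctions, and protein 4.1 also ties them to the membrane together with the p55 protein and glycophorin C. A second attachment runs from beta spectrin through ankyrin to the band 3 anion exchanger. Inherited defects of several of these proteins cause spherocytosis or elliptocytosis, and erythroblasts build up the lattice as they mature.

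Levels are given as FPKM, in which fragments mapped to a gene are scaled by transcript length and by library depth, so they can be compared between genes. Depth was not stated, and the steps between low values gave an approximate 2.55e+07 to 2.7e+07 fragments per library. Wdr26 had 55.4 and 52.4 FPKM in the wild-type pair, against 9.0 and 7.84 in the knockout pair (log2 change −2.55, SE 0.14, limma adjusted p = 0.0063). All 8 erythroid markers, among them Gata1, Klf1, Epor and Hba-a1, were at 1 FPKM or more in every library. Of 6 megakaryocyte markers 4 were at 1 FPKM or more in every library, and their summed level was 249.6 and 304 FPKM in the wild-type pair, against 275 and 285 in the knockout pair. The myeloid (6 genes), lymphoid (4) and stromal (2 in the table) markers summed to no more than 3.06, 1.13 and 0.61 FPKM in any library, with Elane and Cd3e listed at 0 throughout. A list of 14 DNA replication genes separated the libraries by number instead: it summed to 492 and 286 FPKM in wild-type libraries 1 and 2 and to 453 and 211 FPKM in knockout libraries 1 and 2, with all 14 genes lower in library 2 in both genotypes.

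The skeleton genes were among the abundant transcripts of these cells, with the exception of Add3. By mean FPKM over the 4 libraries the order was Gypc (263), Sptb (213), Epb41 (202), Tmod1 (139), Add2 (132), Add1 (110), Dmtn (67.1), Mpp1 (60.7) and Add3 (11). Only 2.08% of the genes tested had a higher mean than Gypc and 10.5% a higher mean than Mpp1, against 51.7% for Add3. Gaps in this order that no library crossed lay between Epb41 and Tmod1, between Add1 and Dmtn and between Mpp1 and Add3. The other adjacent pairs overlapped in range, so the order within each of those pairs was not resolved. At these levels the estimated number of fragments behind a value ran from 936 (Add3 in wild-type library 2) to 5.98e+04 (Sptb in knockout library 1). These fragment numbers are approximate, and no interval was computed from them.

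**Figure D1:**
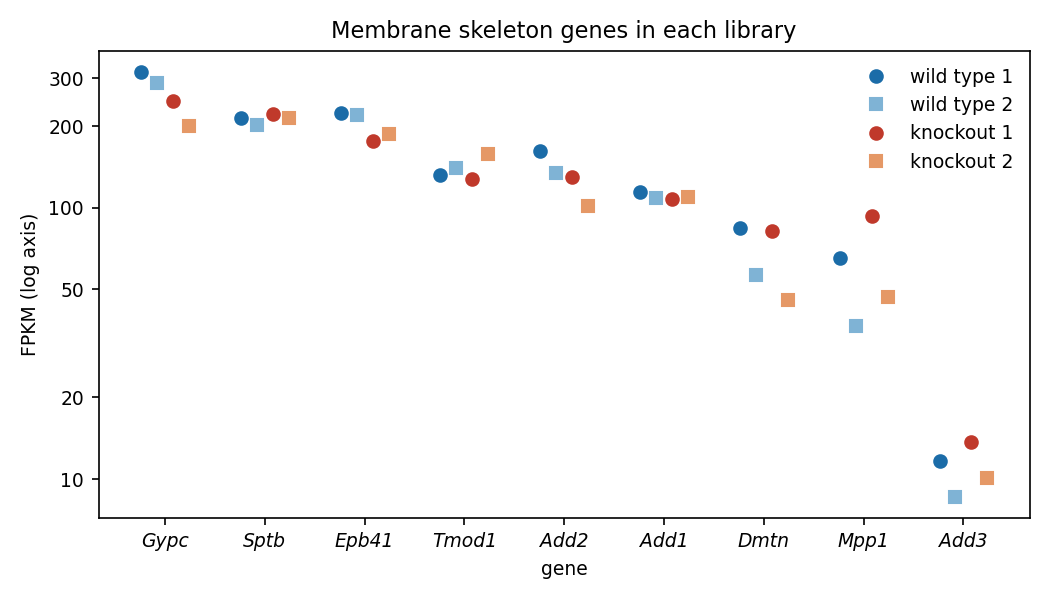
FPKM on a log axis for the 9 skeleton genes, ordered by mean, with 1 point for each of the 4 libraries (circles, libraries numbered 1; squares, libraries numbered 2). Gypc, Epb41 and Add2 have both knockout points under both wild-type points, while Dmtn, Mpp1 and Add3 separate by library number.

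No skeleton gene passed the test of knockout against wild type, fitted without library number as a term. With limma on log2(FPKM + 1), 0 of 9 genes had an adjusted p under 0.05, beside 10 of the 10670 genes tested (0.0937%). The smallest adjusted p was 0.391, and 1 of the 9 (Gypc) had an unadjusted p under 0.05, against 11.4% of all genes tested. In 3 genes (Epb41, Add2 and Gypc) every knockout value lay under every wild-type value, against 10.8% of all genes, and in 1 (Sptb) every knockout value lay above, against 29.9%. With values centred on each library's median, which shifts all changes by about 0.08, those shares over all genes were 20.1% lower and 19.9% higher, and the skeleton counts were 4 lower (Add1 was added) and 0 higher. The median log2 change over the 9 genes was −0.03, beside 0.07 over all genes tested, and −0.11 beside −0.01 after centring. The median of the 9 turned to 0.02 without wild-type library 1. Of the 8 erythroid markers 4 were also lower in both knockout libraries (Klf1 at 79.5%, Epor at 79.4%, Alas2 at 76.1% and Tfrc at 54.0% of the wild-type mean), 1 (Tal1) was higher and 3 overlapped, and their part in the lower skeleton values was not tested. In bulk RNA a smaller number of cells that express a gene and less of its RNA in each cell cannot be told apart.

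**Figure D2:**
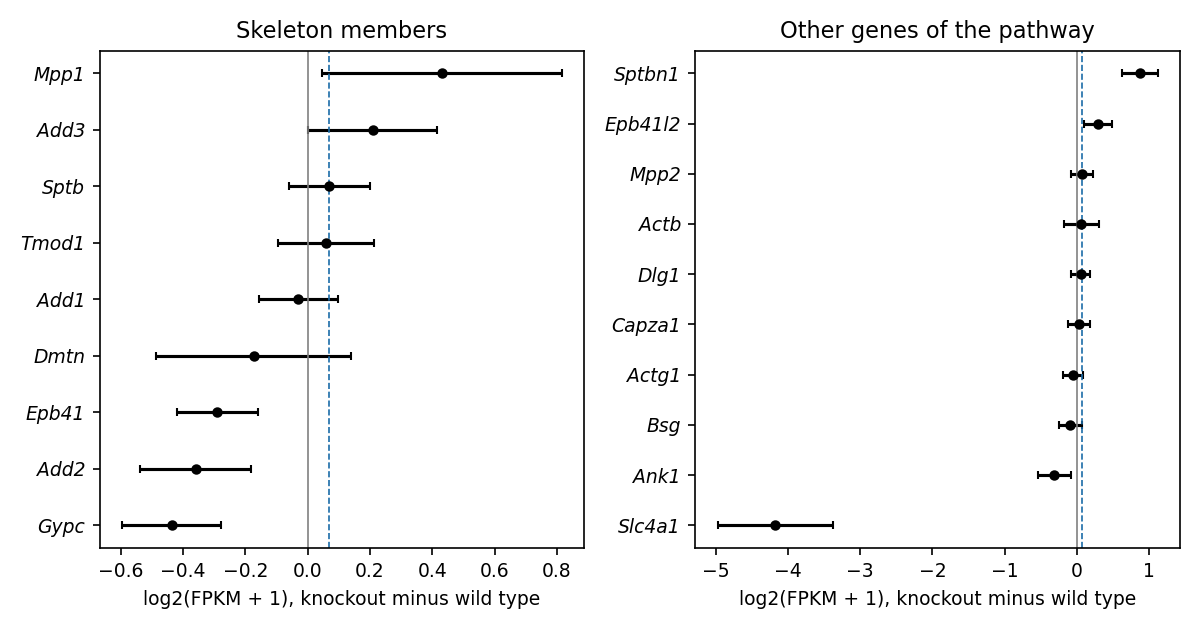
Log2 change in log2(FPKM + 1), knockout minus wild type, for the 9 skeleton genes (left) and 10 other pathway genes (right), with bars of 1 standard error from limma. The dashed line marks the median of all genes tested (0.07), and the horizontal axes of the panels differ in range, since Slc4a1 lies at −4.18.

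The stretches before the transcription starts of Epb41, Add2 and Mpp1 are shown. Epb41 and Add2 were chosen because they were lower in both knockout libraries. Mpp1 was chosen because it was higher in knockout within each library number, as were Sptb, Add3 and 45.1% of all genes tested. Each stretch is the 250 bases before the most upstream RefSeq start with a sequence at hand (GRCm38.p6), read 5′ to 3′ on the gene's strand. For Epb41 that start lies inside the gene's span, which reaches 132075346, so the last bases of its stretch are within the gene. Capitals mark matches, on either strand, to AGATAA or TGATAA (letters of the site read by GATA factors) and to CCNCNCCC (letters of the CACCC box read by Klf1 and its relatives, which also take in the GC box GGGCGGGG).
Epb41, chr4:132075314-132075563, minus strand: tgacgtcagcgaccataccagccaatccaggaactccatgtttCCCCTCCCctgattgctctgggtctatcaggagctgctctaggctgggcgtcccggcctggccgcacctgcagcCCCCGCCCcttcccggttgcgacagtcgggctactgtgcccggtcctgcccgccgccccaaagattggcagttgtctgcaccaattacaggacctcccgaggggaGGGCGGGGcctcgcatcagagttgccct
Add2, chr6:86028431-86028680, plus strand: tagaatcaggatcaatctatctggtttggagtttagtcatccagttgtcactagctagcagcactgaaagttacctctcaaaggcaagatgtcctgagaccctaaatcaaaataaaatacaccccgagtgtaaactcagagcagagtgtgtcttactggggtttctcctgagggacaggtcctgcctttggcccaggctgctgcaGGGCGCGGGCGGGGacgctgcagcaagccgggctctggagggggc
Mpp1, chrX:75131017-75131266, minus strand: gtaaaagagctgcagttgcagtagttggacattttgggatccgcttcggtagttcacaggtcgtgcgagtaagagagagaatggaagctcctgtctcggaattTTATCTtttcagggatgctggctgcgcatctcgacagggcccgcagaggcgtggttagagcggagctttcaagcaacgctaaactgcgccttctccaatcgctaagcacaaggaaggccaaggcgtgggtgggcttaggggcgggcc
Epb41 held 3 CCNCNCCC matches and Add2 held 2, partly overlapping, while neither held the GATA letters. The Epb41 match nearest the listed start, 28 bases before it, lies within the gene's span. Mpp1 held no CCNCNCCC match and 1 GATA match, which begins 147 bases before the start. Over the 7 members with a sequence in the table (Dmtn and Gypc had none), 6 held CCNCNCCC and 1 held the GATA letters in this window. One of the 6 is Tmod1, whose window (46038972 to 46039221, with 4 CCNCNCCC matches) lies wholly inside the gene's span, which begins at 46038940. Over 32851 windows before all RefSeq starts, 45.9% held CCNCNCCC and 16.6% the GATA letters. These include further starts of the same gene, so the shares are not on the same footing as the member counts.

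Beta spectrin, the chain that binds actin, ankyrin and protein 4.1, differed little between genotypes. Sptb (gene ID 20741, chromosome 12, 76580488 to 76710547, mm10) had 213.59 and 201.52 FPKM in the wild-type pair, against 221.41 and 213.88 in the knockout pair. The knockout libraries were higher, but the lower knockout value all but met the higher wild-type value. With centred values or with globin genes removed the groups overlapped. The log2 change was 0.07 (SE 0.13, 95% interval −0.25 to 0.39, limma adjusted p = 0.91), and −0.01 with centred values. Sptb shares exonic sequence with Plekhg3 on the opposite strand, which was at 2.72 and 3.37 FPKM in the wild-type pair, against 4.46 and 6.02 in the knockout pair, and its part in the Sptb values was not tested.

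Protein 4.1 (Epb41, gene ID 269587, chromosome 4, 131923413 to 132075346) joins spectrin to actin at the junctions. It was measured at 224 and 220.0 FPKM in the wild-type pair, against 176 and 187 in the knockout pair, so the groups were well separated beside the small difference within each. The group means were 222 ± 3.08 FPKM for wild type and 181 ± 8.09 for knockout (SD, n = 2 each), the latter 81.7% of the former. The log2 change was −0.29 (SE 0.13, 95% interval −0.61 to 0.02, limma adjusted p = 0.482). It stayed between −0.34 and −0.25 when single libraries were left out, the narrowest such range among Epb41, Add2 and Gypc.

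Glycophorin C and p55 form a membrane complex with protein 4.1. Gypc (gene ID 71683, chromosome 18, 32528320 to 32560034) was at 317 and 289 FPKM in the wild-type pair, against 248 and 201 in the knockout pair. All knockout values lay under all wild-type values, and the knockout mean was 74.1% of the wild-type mean. Its log2 change of −0.44 (SE 0.16, 95% interval −0.83 to −0.05, limma adjusted p = 0.391) was the largest in size of the 9 genes, just ahead of Mpp1. Leaving out knockout library 2 gave −0.28, and leaving out knockout library 1 gave −0.59.

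Mpp1 (gene ID 17524, chromosome X, 75109733 to 75131016), which encodes p55, a scaffold of the membrane-associated guanylate kinase family, behaved differently. Its transcript had values of 65.4 and 36.6 FPKM in the wild-type pair, against 93.6 and 47.0 in the knockout pair. The knockout value was higher within each library number (45.1% of all genes tested were), by 0.51 (number 1) and 0.35 (number 2) on the log2 scale. The genotypes overlapped, and library 1 exceeded library 2 by 1.79-fold in wild type and 1.99-fold in knockout. The log2 change was 0.43 (SE 0.38, 95% interval −0.51 to 1.37, limma adjusted p = 0.768). Leaving out a single library moved it to −0.06 (knockout 1), 0.02 (wild type 2), 0.84 (wild type 1) or 0.92 (knockout 2). Mpp1 shares exonic sequence with Dkc1 on the opposite strand, which averaged 14.8 FPKM and was also higher in library 1 than in library 2 (1.65-fold in wild type and 2.15-fold in knockout). The labels do not give the strandedness of the libraries, and the part of Dkc1 reads in the Mpp1 values was not tested.

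The adducins cap the fast-growing ends of the junctional actin filaments and recruit spectrin to them. Red cells carry mainly alpha and beta adducin. Add1 (alpha adducin, gene ID 11518, chromosome 5, 34573664 to 34632308) varied little, at 114 and 108 FPKM in the wild-type pair, against 108 and 109.8 in the knockout pair. Its log2 change was −0.03 (SE 0.13, 95% interval −0.34 to 0.28, limma adjusted p = 0.964). Add2 (beta adducin, gene ID 11519, chromosome 6, 86028681 to 86124409) was measured at 162 and 134 FPKM in the wild-type pair, against 129.6 and 101 in the knockout pair.

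The Add2 groups did not overlap, but the higher knockout value came within a few FPKM of the lower wild-type value. The knockout mean was 78.0% of the wild-type mean, a log2 change of −0.36 (SE 0.18, 95% interval −0.79 to 0.07, limma adjusted p = 0.539). Leaving out knockout library 2 gave −0.18, and leaving out knockout library 1 gave −0.54. Add3 (gamma adducin, gene ID 27360, chromosome 19, 53140443 to 53247326) was far lower, at 11.7 and 8.62 FPKM in the wild-type pair, against 13.7 and 10.1 in the knockout pair. Add3 overlapped between genotypes (log2 change 0.21, SE 0.21, limma adjusted p = 0.799). The knockout library was higher within each number (45.1% of all genes tested were), by 0.21 in both. Leaving out wild-type library 2 or knockout library 1 gave 0.01, and leaving out wild-type library 1 or knockout library 2 gave 0.41.

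Dematin bundles actin filaments at the junctions. Dmtn (gene ID 13829, chromosome 14, 70602184 to 70636048) had values of 84.3 and 56.7 FPKM in the wild-type pair, against 81.9 and 45.6 in the knockout pair. The libraries numbered 1 lay together above those numbered 2, and the genotypes overlapped (log2 change −0.17, SE 0.31, 95% interval −0.93 to 0.58, limma adjusted p = 0.906). Without knockout library 1 the change was −0.59, and without knockout library 2 it was 0.24.

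Tropomodulin caps the slow-growing filament ends and with tropomyosin limits their length. Tmod1 (gene ID 21916, chromosome 4, 46038940 to 46116032) was at 132 and 139.98 FPKM in the wild-type pair, against 127 and 158 in the knockout pair, so knockout libraries lay on both sides of the wild-type pair. The log2 change was 0.06 (SE 0.15, 95% interval −0.32 to 0.43, limma adjusted p = 0.934), and −0.02 with centred values. Tmod1 overlaps exons of Tstd2 on the opposite strand, which averaged 10.6 FPKM.

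In 4 of the 9 genes (Add3, Dmtn, Tmod1 and Mpp1) the mean difference between libraries 2 and 1 was larger in absolute size than the genotype change, as in 52.6% of all genes tested. In both genotypes 6 of the 9 were lower in library 2 (46.5% of all genes tested) and 1, Tmod1, was higher (24.0%). The difference was largest for Mpp1, at −0.82 in wild type and −0.98 in knockout on the log2 scale, and for Dmtn, at −0.56 and −0.83. Epb41 and Add1 differed by no more than 0.09 between libraries of a genotype. The replication genes, lower in library 2 throughout, moved with Mpp1 and Dmtn, and their part in those values was not tested.

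**Figure D3:**
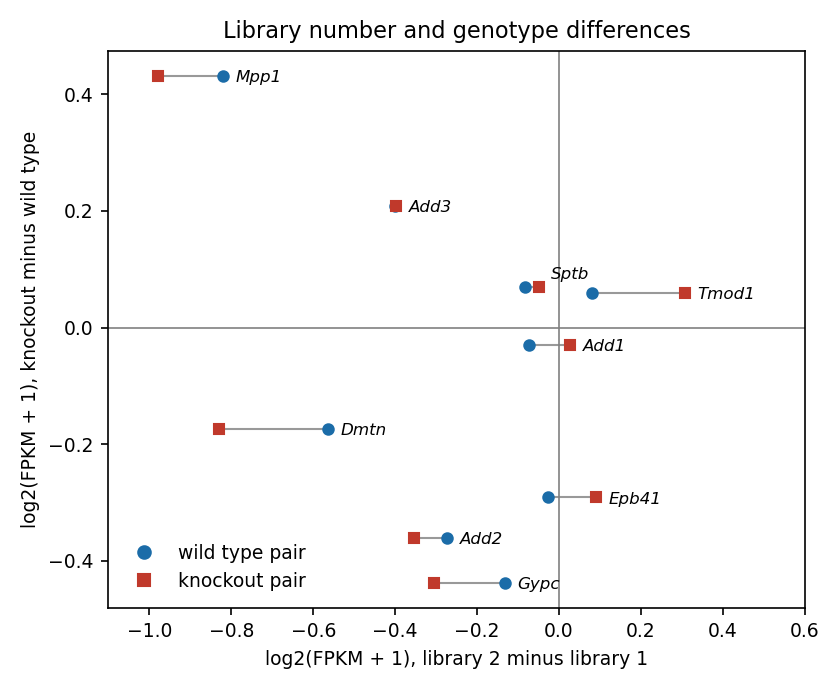
For each skeleton gene, the log2(FPKM + 1) difference between library 2 and library 1 (horizontal axis; circles, wild type; squares, knockout, joined by a line) is set against the knockout minus wild-type change (vertical axis). Mpp1 and Dmtn lie far to the left, at −0.56 or lower, while Epb41, Add1 and Sptb lie within 0.09 of 0.

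Several of these genes have relatives used in other cell types, and the share of each family's summed FPKM was computed per library. Sptb supplied 97.3% and 96.7% of beta spectrin transcripts in the wild-type pair, against 96.0% and 93.5% in the knockout pair, with Sptbn1, the widely expressed beta chain, supplying most of the rest. Epb41 supplied 93.5% and 92.7% of its family, taken as Epb41 and Epb41l1 to Epb41l3, in the wild-type pair, against 91.4% and 89.0% in the knockout pair. Epb41l5 was not in that sum, at 5.09 and 5.25 FPKM in the wild-type pair, against 5.36 and 5.33 in the knockout pair. The Sptb and Epb41 shares were lower in both knockout libraries.

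Within the adducins, Add2 made up 56.3% and 53.4% of the sum in the wild-type pair, against 51.6% and 45.8% in the knockout pair, and Add3 4.07% and 3.44% in the wild-type pair, against 5.44% and 4.58% in the knockout pair. The Add1 share overlapped between genotypes, at 39.6% and 43.2% in the wild-type pair, against 42.9% and 49.7% in the knockout pair, where it was the largest of the 3 in knockout library 2. Tmod1 made up 77.5% and 78.3% of the tropomodulins in the wild-type pair, against 79.3% and 81.2% in the knockout pair, the remainder being almost entirely Tmod3, the ubiquitous form. Mpp1 made up 54.9% and 37.4% of its family in the wild-type pair, against 63.2% and 42.2% in the knockout pair and separated by library number. These shares are a description, and no test of them was run.

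**Figure D4:**
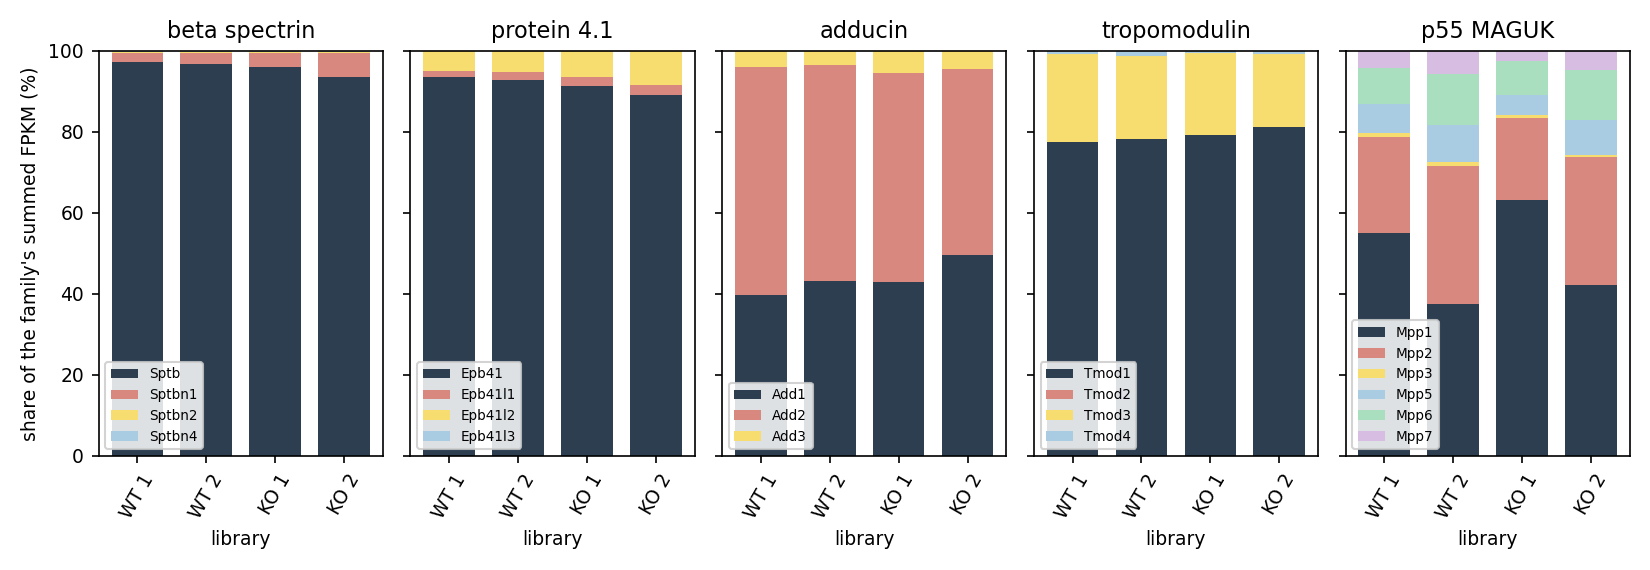
Stacked bars give the percent of a gene family's summed FPKM that each gene supplied in each of the 4 libraries (WT, wild type; KO, knockout; numbers as in the labels). The skeleton members Sptb, Epb41 and Tmod1 supply 77.5% or more of their families in every library, and the Add2 share is lower in both knockout libraries.

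Of 52 further genes on 4 lists of the skeleton and its attachments, 47 were in the table, 36 could be tested and 0 passed in limma over all genes. At an unadjusted p under 0.05, 3 of the 36 were higher in knockout, beside 9.02% of all genes tested, and 2 were lower, beside 2.4%. In both knockout libraries 7 of the 36 were higher, beside 29.9% of all genes, and 8 were lower, beside 10.8%. With centred values 4 were higher, beside 19.9%, and 10 lower, beside 20.1%. Their median log2 change was −0.03, beside 0.07 over all genes, and −0.11 beside −0.01 after centring.

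On the list of ankyrins and other spectrins, Ank1, Sptbn1 and Sptan1 stood as follows. Ank1, the red cell ankyrin, was at 129 and 96.9 FPKM in the wild-type pair, against 108 and 74.2 in the knockout pair, overlapping between genotypes. Sptbn1 had 4.72 and 5.89 FPKM in the wild-type pair, against 8.08 and 13.5 in the knockout pair, 2.03-fold higher by group means (log2 change 0.87, SE 0.25, limma adjusted p = 0.29). The change was 0.53 when knockout library 2 was left out. Sptan1, a spectrin gene of many cell types, named after values were seen because its unadjusted p was under 0.05, had 4.33 and 3.70 FPKM (wild type) against 5.94 and 5.64 (knockout).

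Among the 9 tested relatives of protein 4.1 and p55, in both knockout libraries 3 lay higher (29.9% of all genes did) and 0 lower (10.8%), and 0 either way with centred values (19.9% and 20.1%). The most abundant were Mpp2, at 28.3 and 33.5 FPKM in the wild-type pair, against 29.9 and 35.1 in the knockout pair, Dlg1, at 29.5 and 26.1 against 28.8 and 28.7, and Epb41l2, at 11.8 and 12.7 against 12.8 and 18.0. The actin filament list (10 tested genes) had a median log2 change of −0.002, with 1 gene higher (29.9% of all genes) and 1 lower (10.8%) in both knockout libraries. Actb, one of the actin genes, had means of 450 ± 74.9 FPKM for wild type and 477 ± 147 for knockout (SD, n = 2), Actg1 249 ± 15.7 and 239 ± 10.5 FPKM, and the capping protein gene Capza1 150 ± 6.54 and 154 ± 24.3 FPKM.

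The membrane proteins to which the skeleton is attached gave the lowest median of the 4 lists, −0.16 over 13 tested genes, beside 0.07 over all genes, and −0.24 beside −0.01 with centred values. In both knockout libraries 6 were lower (10.8% of all genes, 20.1% with centred values) and 1 was higher (29.9% and 19.9%), and centring left these counts at 6 and 1. Slc4a1, which encodes band 3, was at 436 and 285 FPKM in the wild-type pair, against 48.6 and 6.70 in the knockout pair, 7.67% of the wild-type mean (log2 change −4.18, SE 0.80, limma adjusted p = 0.166). Bsg, which encodes basigin, averaged 694 ± 71.0 FPKM for wild type and 651 ± 61.0 for knockout (SD, n = 2), and the groups overlapped. The glucose transporter gene Slc2a1 and the stomatin gene Stom, named after values were seen because their unadjusted p was under 0.05, were at 126 and 109.8 FPKM in wild type against 81.2 and 63.1 FPKM in knockout, and at 88.2 and 82.3 FPKM against 118 and 129 FPKM.

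The genes whose 4 values followed the same pattern as Gypc, the member with the largest change, most closely were found by Euclidean distance of mean-centred log2(FPKM + 1) values over the 4 libraries. They were Ier3 (distance 0.0261), Zbtb22 (0.0373), Dnajc19 (0.0586), Pole4 (0.0646) and Cep135 (0.0732). Each was lower in both knockout libraries, with log2 changes from −0.43 to −0.37, which follows from choosing them by closeness to Gypc. None passed the test.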

How the data were processed

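RNA of MEL cells (2 wild-type and 2 Wdr26 knockout libraries, grouped by the titles in the labels) had been depleted of ribosomal RNA, per the labels. The authors deposited 1 value per gene and library without naming a unit. The deposited values were taken as FPKM because, multiplied by transcript length from GENCODE M21, they summed to 1.02e+09 to 1.04e+09 per library. The submitters' processing notes name TopHat2 and mm10 but give them no role, and the quantification program is not stated in the labels. For 6 of the 9 genes (all but Tmod1, Mpp1 and Gypc) the deposited transcript column lists transcripts outside RefSeq beside RefSeq ones. Of the gene IDs, 16316 matched the RefSeq gene table of GRCm38.p6, and 24 symbols that had become dates were restored through it.

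Values were converted to log2(FPKM + 1), so changes of low genes are understated. A gene was tested when 2 or more libraries reached 1 FPKM. Knockout was compared with wild type by limma 3.58.1 in R 4.3.3 (eBayes with a mean-variance trend, no covariates, Benjamini-Hochberg over all genes tested, threshold 0.05). Depth was estimated from the steps in low values of short genes with 1 transcript, assuming a loss of 200 bases of effective length. Tables and figures used pandas 2.3.3 and matplotlib 3.10.9.

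The members and lists were chosen with earlier results of these data known. Named by rule were the 9 genes, Wdr26, and on each further list the genes past the threshold or else the 3 most abundant, and those changed at least 2-fold at a mean of at least 5 FPKM. Some genes named by this rule are not reported here. Sptan1, Slc2a1, Stom and the overlapping neighbours were named after their values were seen. Alternatives were median centring, quantile normalization, leaving out globin genes, no filter, a mean of at least 5 FPKM, a pseudocount of 0.1, no trend, the library number as a block, and leaving out each library.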

Additional observations from a re-analysis of the deposited data

How the results depend on the processing

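The count of skeleton genes past the threshold stayed at 0 under median-centred values, quantile normalization, removal of globin genes, both other filters, the smaller pseudocount and limma without the trend. Leaving out single libraries gave between 0 and 1 (Dmtn without knockout library 1, Mpp1 without knockout library 2), and between 0 and 6 of the 36 further pathway genes, with 6 without knockout library 1. With the library number as a replicate block 3 skeleton genes passed (Add2, Mpp1 and Gypc), 8 of the pathway genes and 1863, or 17.5%, of all genes, with 1 degree of freedom left for each gene's spread. The labels do not say that the numbers pair the libraries. Deviations of same-numbered libraries from their group means correlated across genes (r = 0.606). Over all genes 10 passed, and 2 when the mean had to reach 5 FPKM. In limma without the filter 0 passed, and 1957 genes had an unadjusted p under 0.05.

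Of 108 changes of single skeleton genes under alternatives, 94 kept their direction and their side of the threshold and 9 turned. The others passed the threshold, either with library number as a block or with 1 library left out. With median-centred values Sptb was at −0.008 and Tmod1 at −0.018, and with globin genes removed at −0.003 and −0.013. With single libraries left out Add1 ran from −0.066 to 0.005, Dmtn from −0.59 to 0.24, Mpp1 from −0.059 to 0.92, Tmod1 from −0.095 to 0.21 and the median of the 9 from −0.066 to 0.019. The difference in Mpp1 share between genotypes ran from −3.92 to 17.1 percentage points. Genes higher in both knockout libraries numbered 0 with median centring (19.9% of all genes), quantile normalization (20.7%) or globin genes removed (21.3%). Genes lower in both numbered 4 (20.1% of all genes), 3 (20.1%) and 4 (18.4%) in the same order. With single libraries left out, genes higher in both numbered between 1 and 3, where 37.3 to 51.5% of all genes were higher. Genes lower in both then numbered between 3 and 5, where 15.4 to 30.8% of all genes were lower, since fewer libraries have to be separated. For the other values that turned, the cause was not tested.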

Other observations

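The ratio between the partner adducin chains was computed after the values had been seen and was not tested. The ratio of Add2 to Add1, which pair in red cell adducin, was 1.42 and 1.24 for wild type, against 1.20 and 0.922 for knockout.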
